A study of Mus musculus with 6 samples.

Results

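The IGF axis was examined in bone marrow mesenchymal stem cells (BMMSCs) through 10 genes, the ligands Igf1 and Igf2, the receptors Igf1r and Igf2r, and the binding proteins Igfbp2, Igfbp3, Igfbp4, Igfbp5, Igfbp6 and Igfbp7. They were chosen by symbol, and all 10 were found among the 36870 distinct symbols of the expression table, each in a single row. RNA-seq had been performed on BMMSCs of C57BL/6 mice, adherent cells grown out of flushed femur and tibia marrow. They were at passage 2 by the sample labels, whereas the methods of the study name an earlier passage for its mouse BMMSCs. The Control group held 3 libraries, and the siTet1/Tet2 group held 3 libraries from cells given siRNAs against both Tet1 and Tet2. By the labels the Control cells received a non-targeting siRNA, which the siRNA methods of the study also name, whereas its sequencing methods name a vehicle. Neither the labels nor the study gives the number of mice or cultures behind the libraries. The p-values therefore measure only the spread between these libraries, which may be technical. The groups were compared to see which genes changed when Tet1 and Tet2, enzymes that oxidize 5-methylcytosine in DNA, were reduced.

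Igf1 and Igf2 are secreted growth factors that signal through Igf1r, a receptor tyrosine kinase, to the adaptors Irs1 and Irs2 and the PI3K, AKT and mTOR kinases. Igf2r, which is also the receptor for mannose 6-phosphate, takes up Igf2 for degradation and does not carry that signal. Most IGF in tissue fluid is held by IGF-binding proteins, which can block or prolong its action, and the protease Pappa releases IGF by cutting Igfbp4. In bone, IGF supports osteoblasts, and several binding proteins are made by stromal and bone-forming cells.

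Values are RPKM, the reads on a gene relative to its length and to all mapped reads of the library, so levels can be set side by side between genes. The lowest value listed is 0.001 RPKM, and by an estimate from the low values the libraries held between 32400000 and 38500000 reads. Tet2 was at 2.57 to 4.08 RPKM in the Control libraries and at 0.202 to 0.358 RPKM in the siTet1/Tet2 libraries, Tet1 was at most at 0.098 RPKM in any library, and Tet3, which was not targeted, had group means of 7.03 and 7.66 RPKM. The cell label was checked against markers. Of the 22 stromal markers, 19 had a mean of at least 0.1 RPKM, but Thy1, the gene of CD90, reached at most 0.146 RPKM, Lepr 0.083 RPKM and Lum 0.054 RPKM. The 18 macrophage markers summed to between 9630 and 12666 RPKM in the Control libraries, against 2289 to 3069 RPKM for the stromal markers, and Ptprc, the gene of CD45, was at 47.2 to 59.3 RPKM over all libraries. By flow cytometry, which measures protein, the study reported BMMSCs of control and Tet1/Tet2 knockout mice as positive for CD90 and negative for CD45. The cells named for that assay were not siRNA-treated. Lymphoid and erythroid markers together summed to at most 0.3 RPKM. RNA of macrophage markers was thus present beside that of stromal markers in cells labelled BMMSCs. In bulk samples such as these, fewer cells of a type and less RNA per cell cannot be told apart.

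Start-site sequences are shown for Igf1, the ligand that rose, and for Igfbp7 and Igfbp5, the members with the largest decreases on the log2(RPKM + 1) scale, because Tet enzymes act on methylated cytosine, which in mammals lies mostly in CG dinucleotides. DNA methylation was not measured in these libraries. RefSeq on GRCm38.p6 gave windows for all 10 members, 14 in all, each from 250 bases before to 50 bases after a start. They are printed 5′ to 3′ on the strand of the gene, with every CG in capitals. Igf1 is chr10:87860861-87861160 on the + strand, Igfbp7 is chr5:77407996-77408295 on the - strand and Igfbp5 is chr1:72874816-72875115 on the - strand.
Igf1: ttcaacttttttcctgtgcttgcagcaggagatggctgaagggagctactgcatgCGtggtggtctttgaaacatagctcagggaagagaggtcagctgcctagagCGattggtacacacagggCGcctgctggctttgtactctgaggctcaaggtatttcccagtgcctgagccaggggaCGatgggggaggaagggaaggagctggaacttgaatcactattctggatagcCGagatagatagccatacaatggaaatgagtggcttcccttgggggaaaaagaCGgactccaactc
Igfbp7: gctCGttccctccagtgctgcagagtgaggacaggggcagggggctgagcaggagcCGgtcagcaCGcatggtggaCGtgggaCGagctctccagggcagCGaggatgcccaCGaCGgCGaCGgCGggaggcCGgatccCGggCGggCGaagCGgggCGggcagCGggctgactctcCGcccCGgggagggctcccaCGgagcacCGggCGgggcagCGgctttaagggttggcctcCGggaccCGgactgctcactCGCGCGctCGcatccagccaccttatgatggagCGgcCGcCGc
Igfbp5: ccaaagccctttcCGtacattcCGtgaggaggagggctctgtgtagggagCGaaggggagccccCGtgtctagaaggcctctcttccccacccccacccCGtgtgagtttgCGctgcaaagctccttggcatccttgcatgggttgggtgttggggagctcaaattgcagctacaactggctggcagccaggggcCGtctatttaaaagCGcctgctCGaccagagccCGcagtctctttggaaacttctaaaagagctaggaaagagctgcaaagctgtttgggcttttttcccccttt
The Igf1 window held 6 CG, the Igfbp5 window 10 and the Igfbp7 window 33, against a median of 7 over all 32851 windows, of which 8.56% held at least as many as Igfbp7. The Igf1 window belongs to a start 2846 bases downstream of the outermost one in GENCODE M21, so other starts of that gene are not shown. Among the other members, the windows of Igf1r, Igfbp3, Igf2r, Igfbp4 and Igfbp6 held 48, 37, 34, 27 and 8 CG, the 2 windows of Igfbp2 held 18 and 14, and the 4 windows of Igf2 held 2 to 24. The letters TATAAA, searched on both strands, stood in the windows of Igfbp4 and Igfbp6 and in 13.6% of all windows. GGGCGG, on either strand, stood 4 times in the Igfbp7 window and at least once in 35.7% of all windows. It stood at most 3 times in a window of Igf2r or Igfbp2 and at most 2 times in a window of Igf1r or Igf2.

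The siTet1/Tet2 BMMSCs had more Igf1 RNA and less RNA of 5 of the 6 binding proteins. Igf1 rose to 1.85 times its Control mean, whereas Igfbp5 fell 10.7-fold, Igfbp3 7.31-fold, Igfbp7 4.58-fold and Igfbp4 1.55-fold as ratios of mean RPKM. Igf2 and Igf1r were lower as well. Tested on log2(RPKM + 1) with limma over the 13266 genes whose mean reached 0.1 RPKM, 9 of the 10 members had an adjusted p under 0.05, against 44.5% of all genes tested. Of these, 7 were lower, against 29.8% of all genes, and 2, Igf1 and Igf2r, were higher, against 14.7% of all genes. The call of Igf2r was lost in 9 of 17 alternatives. By the study's thresholds, an unadjusted p under 0.05 and a fold over 2, which were applied here on the log2(RPKM + 1) scale, Igfbp7 and Igfbp5 were altered, 2 of 10 members against 6.58% of all genes, and both were lower, against 5.63% of all genes. Adding 1 RPKM understates the change of genes near or under 1 RPKM, and 6 members passed the same thresholds with a pseudocount of 0.1, against 13.0% of all genes. The groups did not overlap in 8 of the 10 members, against 55.7% of all genes. The median log2 fold change was -0.69 over the members and -0.09 over all genes tested.

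**Figure D1:**
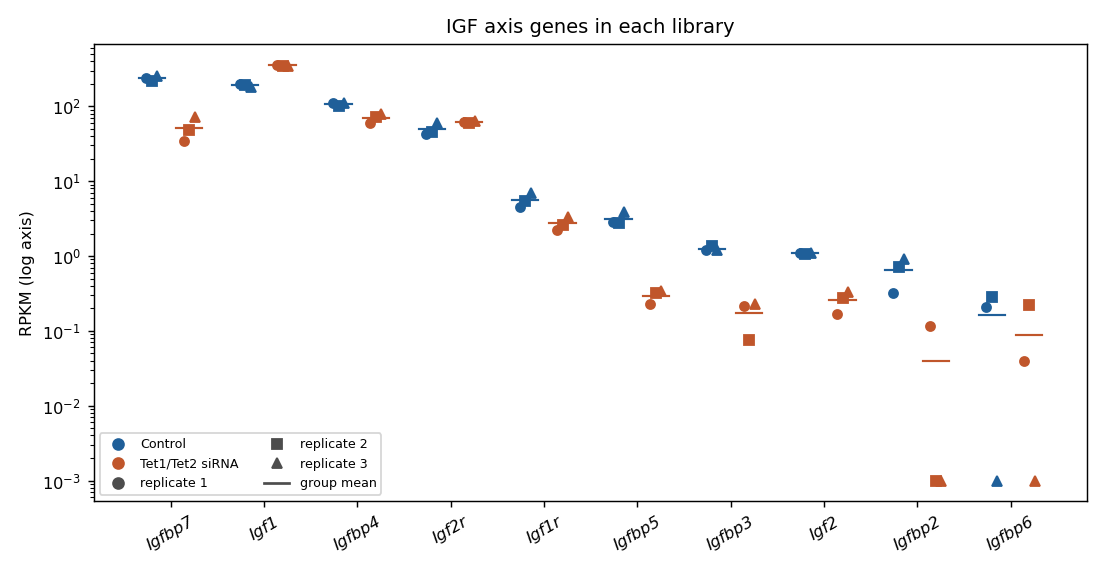
RPKM of the 10 IGF axis genes in each library on a log axis, with Control libraries in blue, siTet1/Tet2 libraries in orange, shapes for replicate numbers and lines for group means. The siTet1/Tet2 libraries stand above every Control library for Igf1 and below every Control library for 7 members, while the groups overlap for Igf2r and Igfbp6, and points at 0.001 RPKM are at the lowest listed value.

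The ligands moved in opposite directions. Igf1, on chr10:87858265-87937042 of GRCm38, had 198, 196 and 180.4 RPKM in Control cells, compared with 359.5, 351 and 351 RPKM in siTet1/Tet2 cells. All siTet1/Tet2 libraries stood above all Control libraries, with little spread inside either group. The mean rose from 192 ± 9.77 to 354 ± 4.78 RPKM (SD, n = 3), a log2 fold change of 0.88 (standard error, SE, 0.06, limma adjusted p = 2.75e-05).

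Igf2, a fetal growth factor imprinted in mice, lies on chr7:142650766-142666816 and had 1.11, 1.08 and 1.09 RPKM in Control cells, compared with 0.167, 0.274 and 0.335 RPKM in siTet1/Tet2 cells. The Control libraries were nearly equal and lay above every siTet1/Tet2 library. The mean fell 4.22-fold, from 1.09 ± 0.0172 to 0.259 ± 0.085 RPKM (SD, n = 3), or by 0.74 on the log2(RPKM + 1) scale (SE 0.07, limma adjusted p = 0.000116). These values rest on an estimated 167 to 195 reads in the Control and 30 to 56 reads in the siTet1/Tet2 libraries. Igf1 was thus nearly the whole of the ligand RNA, at 99.4% of the summed ligand RPKM in the Control and 99.9% in the siTet1/Tet2 libraries. H19, the imprinted neighbour of Igf2, and the antisense genes Igf1os and Igf2os, which overlap the ligand genes, were listed at 0.001 RPKM in all libraries. Whether the counting used strand is not given in the sources used here. Gm49394 and Mir483 also overlap Igf2, on its own strand, and their values were not examined.

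Of the receptors, Igf1r was lower, while Igf2r was called higher with groups that overlapped. Igf1r, on chr7:67952827-68233668, had 4.48, 5.36 and 6.91 RPKM in Control cells, compared with 2.23, 2.59 and 3.37 RPKM in siTet1/Tet2 cells. Every siTet1/Tet2 library was below every Control library, although the spread inside each group was wide. The mean fell from 5.58 ± 1.23 to 2.73 ± 0.583 RPKM (SD, n = 3), and its log2 fold change was -0.82 (SE 0.16, limma adjusted p = 0.00389). With no filter on low values the adjusted p of Igf1r was 0.0785 in limma.

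Igf2r, on chr17:12682406-12769664, had 42.6, 46.0 and 59.8 RPKM in Control cells, compared with 62.8, 59.3 and 63.7 RPKM in siTet1/Tet2 cells. The groups overlapped, since Control replicate 3 stood just above siTet1/Tet2 replicate 2. The log2 fold change was 0.33 (95% interval 0.07 to 0.60, limma adjusted p = 0.0456). The call was lost in 9 of 17 alternatives, including each fit without 1 library (adjusted p from 0.0863 to 0.141 in limma) except that without Control replicate 3 (0.000446). Airn, an antisense RNA that overlaps Igf2r, was listed at 0.001 RPKM in all libraries. The RPKM of Igf2r was 8.92 ± 0.522 times that of Igf1r in the Control libraries and 23.3 ± 4.66 times in the siTet1/Tet2 libraries (SD, n = 3).

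**Figure D2:**
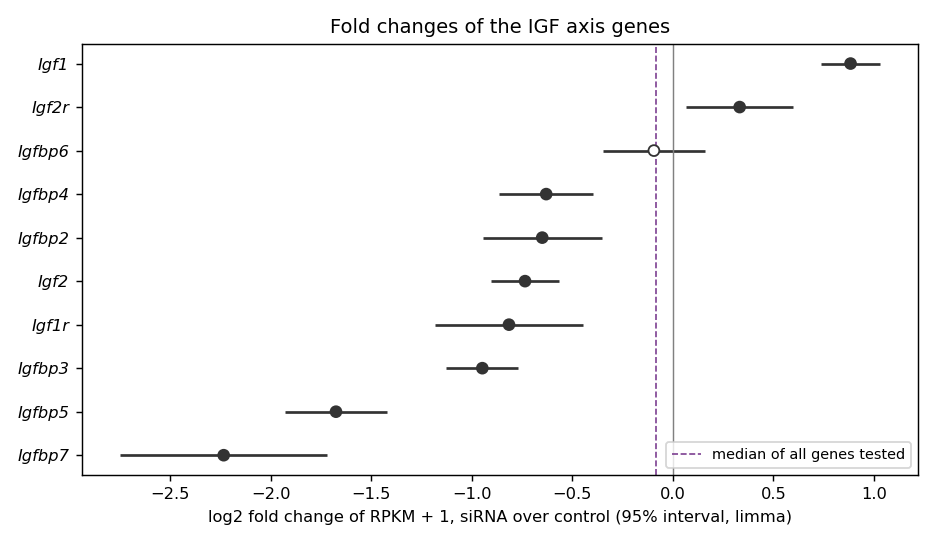
Log2 fold change of RPKM + 1, siTet1/Tet2 over Control, for the 10 IGF axis genes, with 95% intervals from limma, filled points for an adjusted p under 0.05 and a dashed line at the median of all genes tested, -0.09. Igf1 and Igf2r lie to the right of 0, 7 members lie to the left, and the interval of Igfbp6 spans 0.

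Among the binding proteins, Igfbp7 and Igfbp5 had the largest decreases on the log2(RPKM + 1) scale, whereas with a pseudocount of 0.1 Igfbp5 (-3.04), Igfbp2 (-2.43) and Igfbp3 (-2.37) came before Igfbp7 (-2.26). Igfbp7, a secreted protein of vascular and stromal matrix that binds IGF weakly, lies on chr5:77349240-77408041 and has the CG-rich start printed above. It overlaps Polr2b and Gm34648 on the + strand, whose reads could not be told from its own without strand. It had 239.9, 216 and 255 RPKM in Control cells, compared with 34.1, 49.1 and 72.1 RPKM in siTet1/Tet2 cells. The groups were far apart, and the siTet1/Tet2 libraries differed more among themselves, in proportion, than the Control libraries did. The mean fell from 237 ± 19.6 to 51.8 ± 19.1 RPKM (SD, n = 3), a log2 fold change of -2.23 (SE 0.22, limma adjusted p = 0.000122).

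Igfbp5, a binding protein abundant in bone matrix, lies on chr1:72857932-72874884 and had 2.82, 2.79 and 3.88 RPKM in Control cells, compared with 0.230, 0.317 and 0.337 RPKM in siTet1/Tet2 cells. Each siTet1/Tet2 value was well under each Control value. The mean fell from 3.16 ± 0.621 to 0.295 ± 0.0569 RPKM (SD, n = 3), a log2 fold change of -1.68 (SE 0.11, limma adjusted p = 1.73e-05).

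Igfbp4, an inhibitor of IGF action that Pappa cleaves, remained abundant. It lies on chr11:99041244-99054392 and had 112, 101 and 111 RPKM in Control cells, compared with 59.4, 71.8 and 78.6 RPKM in siTet1/Tet2 cells. The groups did not overlap. The mean fell from 108 ± 6.05 to 69.9 ± 9.72 RPKM (SD, n = 3), a log2 fold change of -0.63 (SE 0.10, limma adjusted p = 0.00142).

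Igfbp3, the main carrier of circulating IGF, was scarce in these cells. It lies on chr11:7206086-7213923 and had 1.21, 1.36 and 1.21 RPKM in Control cells, compared with 0.212, 0.075 and 0.23 RPKM in siTet1/Tet2 cells. All siTet1/Tet2 libraries were lower than all Control libraries. The log2 fold change was -0.95 (SE 0.08, limma adjusted p = 4.70e-05), on an estimated 95 to 109 reads against 7 to 20 reads.

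Igfbp2, on chr1:72824503-72852474, had 0.32, 0.723 and 0.902 RPKM in Control cells, compared with 0.117, 0.001 and 0.001 RPKM in siTet1/Tet2 cells. These stand for an estimated 16 to 38 reads in the Control libraries and 6, 0 and 0 reads in the siTet1/Tet2 libraries, so no fold is given. On the log2(RPKM + 1) scale Igfbp2 fell by 0.65 (SE 0.13, limma adjusted p = 0.00413), and with no filter on low values the adjusted p was 0.0959.

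Igfbp6, which prefers Igf2 to Igf1, lies on chr15:102144362-102149511 and had 0.207, 0.28 and 0.001 RPKM in Control cells, compared with 0.04, 0.22 and 0.001 RPKM in siTet1/Tet2 cells. The groups overlapped, with 1 library of each at the lowest listed value and at most an estimated 10 reads in any. The log2 fold change was -0.09 (95% interval -0.35 to 0.16, limma adjusted p = 0.514), and a difference was not detectable at this depth.

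The order of the levels differed between the groups. In the Control libraries mean RPKM ran from Igfbp7 through Igf1, Igfbp4, Igf2r, Igf1r, Igfbp5, Igfbp3, Igf2 and Igfbp2 to Igfbp6, and no pair of neighbours overlapped in the range of their libraries. In the siTet1/Tet2 libraries Igf1 stood first, above all others. Igfbp4, Igf2r and Igfbp7 followed with overlapping ranges between 34.1 and 78.6 RPKM, Igf1r stood alone at 2.23 to 3.37 RPKM, and Igfbp5, Igf2, Igfbp3, Igfbp6 and Igfbp2 overlapped from neighbour to neighbour under 0.34 RPKM.

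The summed RPKM of the 6 binding proteins was 357, 323 and 372 in the Control libraries and 94.1, 121 and 151 in the siTet1/Tet2 libraries, 2.87-fold lower as a ratio of means. Igfbp7 made up 67.6% ± 0.839 of the sum in the Control and 41.4% ± 5.79 in the siTet1/Tet2 libraries (SD, n = 3), and Igfbp4 made up 30.9% ± 0.934 and 58.1% ± 5.66. Igfbp7 RPKM was 2.13 to 2.30 times that of Igfbp4 within each Control library and 0.574 to 0.918 times within each siTet1/Tet2 library, although Igfbp4 itself was lower. For both shares the exact two-sided permutation test gave p = 0.1, the smallest that 3 libraries against 3 allow, or 0.15 adjusted over the 6 binding proteins. Igf1 RPKM was 0.556, 0.607 and 0.485 times the summed binding-protein RPKM in the Control libraries and 3.82, 2.89 and 2.32 times in the siTet1/Tet2 libraries. The ratio of means was 5.48, with no overlap of the groups (exact permutation p = 0.1, two-sided, also 0.1 when adjusted over the 8 sums and ratios computed). The sum includes Igfbp7, which binds IGF weakly, and the ratio of Igf1 to the other binding proteins was not computed. The ratio of Igf1 to Igf1r RPKM had means of 35.7 ± 9.16 in the Control and 134 ± 28.7 in the siTet1/Tet2 libraries (SD, n = 3). These sums and ratios were chosen after the values had been seen.

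**Figure D3:**
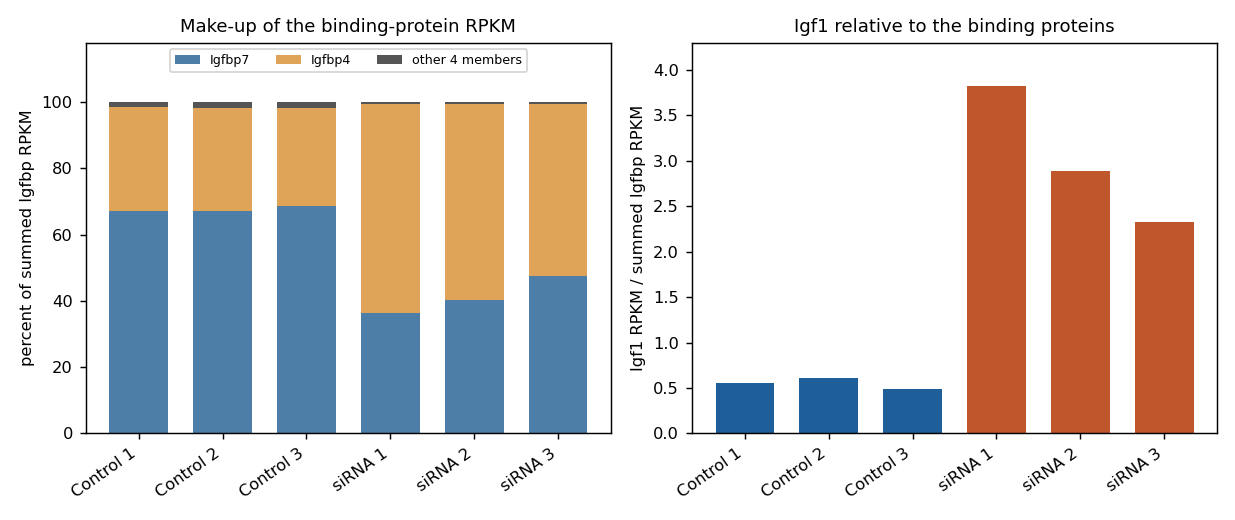
Left, percent of the summed RPKM of the 6 binding proteins held by Igfbp7, Igfbp4 and the other 4 in each library; right, Igf1 RPKM divided by that sum. Igfbp7 holds 67.0 to 68.6% in the Control libraries and 36.2 to 47.7% in the siTet1/Tet2 libraries, and the ratio lies between 0.485 and 0.607 in the former and between 2.32 and 3.82 in the latter.

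Of 46 other genes of the IGF pathway, 40 could be tested, of which 14 were lower, 4 were higher and 22 did not pass. These 18 calls were 45.0% of the genes tested, close to the 44.5% of all genes, with 35% lower against 29.8% and 10.0% higher against 14.7%. The median log2 fold change was -0.05. Which direction prevailed among the calls depended on the scaling. Under median ratio scaling 23 of the 40 were called, 13 lower and 10 higher, against 43.7% of all genes. After quantile normalization 26 of the 40 were called, 12 lower and 14 higher, against 47.0% of all genes. The closeness to the share of all genes did not hold under these scalings. By role, all 4 proteases and protease inhibitors tested were lower, as were 4 of 8 genes of the insulin receptor and its adaptors (2 were higher), 3 of 21 genes of PI3K, AKT and mTOR (2 were higher), 2 of 5 of the growth hormone arm and 1 of 2 that encode Igf2 mRNA-binding proteins. Igfbp1, a binding protein of liver, was listed at 0.001 RPKM in all libraries.

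Pappa, the Igfbp4 protease, had the largest decrease among these genes on the log2 scale. It had 7.72, 8.31 and 12.3 RPKM in Control cells, compared with 0.452, 0.578 and 0.92 RPKM in siTet1/Tet2 cells. The groups lay far apart, with a 14.5-fold lower mean and a log2 fold change of -2.65 (SE 0.17, limma adjusted p = 1.69e-05). Htra1, a serine protease that can cut binding proteins, fell from a mean of 16.2 to 5.24 RPKM. Stc1 and Stc2, which inhibit Pappa, were lower too, at means of 0.303 and 0.433 RPKM in the Control and 0.0723 and 0.151 RPKM in the siTet1/Tet2 libraries. Their log2 fold changes were -0.28 and -0.31 (limma adjusted p = 0.00795 and 0.0243). Few reads stand behind them, an estimated 35 to 48 for Stc1 and 46 to 78 for Stc2 in the Control libraries. The siTet1/Tet2 libraries held an estimated 3 to 17 and 11 to 33 reads. Pappa, its inhibitors and its substrate Igfbp4 were all lower.

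The adaptors under the receptors moved apart, Irs1 down and Irs2 up. Irs1 had 2.88, 3.28 and 4.62 RPKM in Control cells, compared with 0.643, 0.797 and 0.962 RPKM in siTet1/Tet2 cells. Irs2 had 3.31, 3.69 and 3.65 RPKM in Control cells, compared with 5.95, 6.22 and 6.54 RPKM in siTet1/Tet2 cells. Neither gene's groups overlapped, and both are substrates that link the receptor to PI3K. The log2 fold changes were -1.34 for Irs1 (SE 0.14, limma adjusted p = 0.000165) and 0.67 for Irs2 (SE 0.08, limma adjusted p = 0.000382), and the mean Irs1 to Irs2 ratio went from 1.01 to 0.128. Grb10 and Grb14, which bind and restrain these receptors, fell from 15.7 to 4.62 and from 6.30 to 1.67 RPKM. Grb2, which couples receptors to Ras, rose from 71.4 to 88.5 RPKM. Insr, the insulin receptor, had means of 4.74 and 5.57 RPKM and did not pass (adjusted p = 0.133 in limma), though it did under median ratio scaling (0.0342) and quantile normalization (0.00847).

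Further down, Akt1 rose from 130.3 to 169.9 RPKM and Foxo3, a transcription factor that AKT restrains, from 12.3 to 18.3 RPKM. Eif4ebp1, which restrains translation until mTOR phosphorylates it, and the mTOR target kinase Rps6kb1 were lower, with log2 fold changes of -0.55 and -0.44. The growth hormone receptor Ghr fell from 14.0 to 6.40 RPKM and its kinase Jak2 from 17.1 to 9.38 RPKM. Igf2bp2, which binds Igf2 mRNA, fell from 22.8 to 7.58 RPKM.

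**Figure D4:**
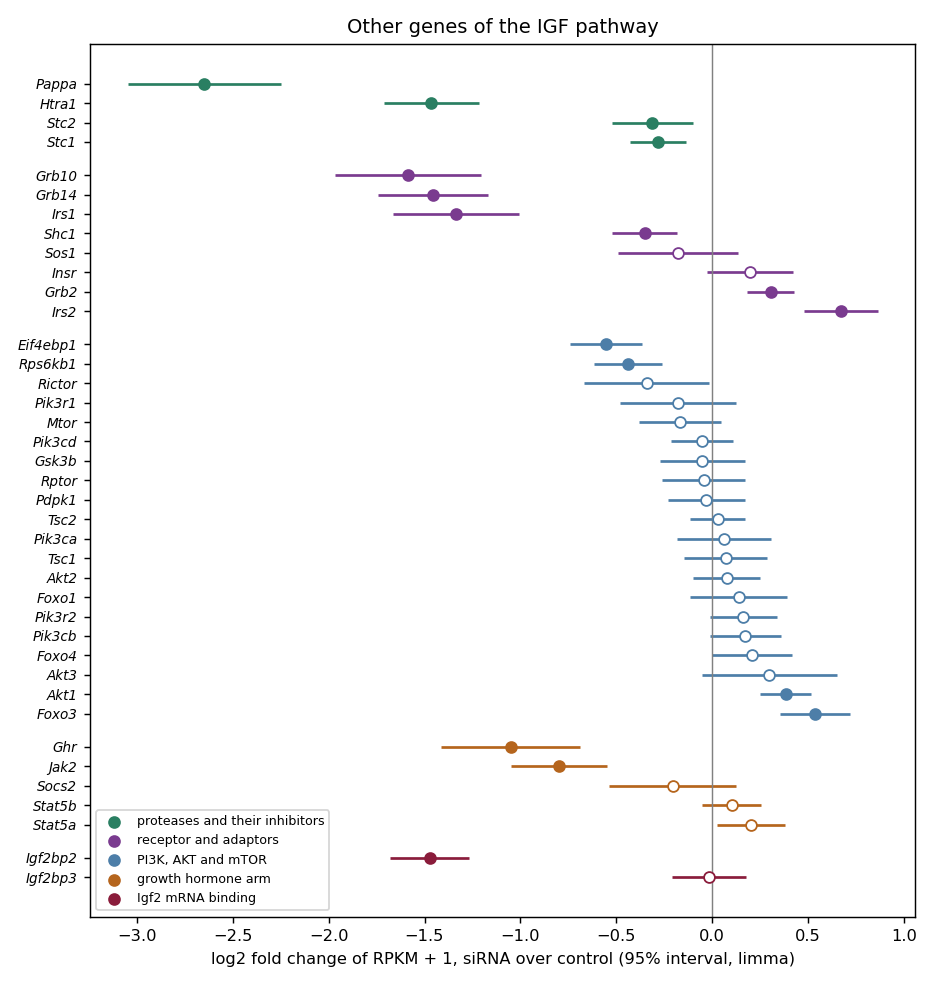
Log2 fold change of RPKM + 1, siTet1/Tet2 over Control, with 95% intervals from limma, for 39 of the 40 other IGF pathway genes tested, coloured by role and filled where the adjusted p was under 0.05. Pappa lies farthest to the left at -2.65, all 4 proteases and inhibitors are filled on the left, and Irs1 (-1.34) and Irs2 (0.67) lie on opposite sides of 0.

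The members were set beside the marker genes, since these moved too. The summed stromal markers were at 2289 to 3069 RPKM in the Control and at 626, 752 and 938 RPKM in siTet1/Tet2 replicates 1 to 3, and 14 of the 19 tested were lower and 2, Vcam1 and S100a4, were higher. The summed macrophage markers went from 9630 to 12666 RPKM in the Control to 18080 to 21156 RPKM in the siTet1/Tet2 libraries, with 8 of 18 higher, 4 lower and none at 0.001 RPKM in all libraries. Lyz2, the lysozyme gene, made up 81.9% of the rise of that sum, with means of 4439 and 11321 RPKM, and the other 17 markers summed to 6082 to 7653 RPKM in the Control and 8237 to 8681 RPKM in the siTet1/Tet2 libraries. Ptprc, C1qa, C1qb, C1qc, Spi1 and Emr1 did not pass, and Fcgr1 fell from a mean of 109 to 27.8 RPKM. The siTet1/Tet2 libraries stood in the same order as in the stromal sum in 5 of the 10 members, Igf2, Igf1r, Igfbp4, Igfbp5 and Igfbp7. How many of all genes had this order was not counted, so the members cannot be set against a background. As log2 of the ratio of mean RPKM, the stromal markers had a median of -2.37 and the macrophage markers of 0.19. On that scale Igfbp7 was at -2.20 and Igf2 at -2.08, Igfbp5 at -3.42 and Igfbp3 at -2.87, and Igfbp4 at -0.63 and Igf1 at 0.89. Igf1 lay above 17 of the 19 stromal and 16 of the 18 macrophage markers, and Igfbp5 lay below all of them. The part of these marker changes in the result was not tested.

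**Figure D5:**
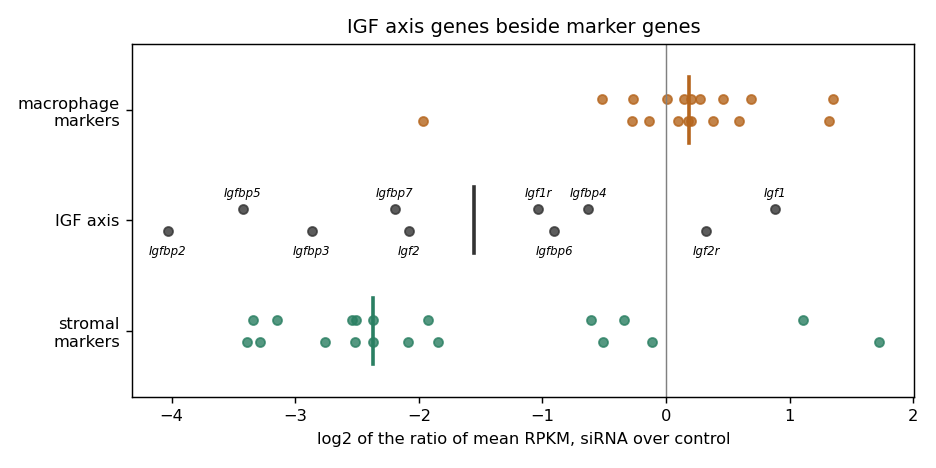
Log2 of the ratio of mean RPKM, siTet1/Tet2 over Control, for the 10 IGF axis genes, 19 stromal and 18 macrophage markers, 1 point per gene, with vertical lines at the medians. The stromal median is -2.37 and the macrophage median 0.19, Igf1 (0.89) lies above most markers of both kinds, and Igfbp5 and Igfbp2, the latter with 2 siTet1/Tet2 libraries at the lowest listed value, lie to the left of every marker.

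A second fit on log2(RPKM + 0.01) expressed each gene relative to the median of the stromal markers of its library. In it the median log2 fold change over all genes was 1.45. Its p-values rest on the spread shared across genes, on which limma put all weight, and not on each gene's own spread. Of the members 3 were higher, against 84.9% of all genes, and 3 were lower, against 3.02% of all genes. The higher ones were Igf1 (log2 fold change 2.45), Igf2r (1.90) and Igfbp4 (0.92), and the lower ones Igfbp5 (-1.82), Igfbp3 (-1.38) and Igfbp2, whose size depends on the pseudocount because 2 of its siTet1/Tet2 libraries are at the lowest listed value. Igfbp2 was at -3.04 with 0.01 RPKM added and at -0.88 with 0.1 RPKM added (limma adjusted p = 0.0317), and at -4.48 to -2.26 without 1 library. Igfbp3 was at -0.82 with 0.1 RPKM added (limma adjusted p = 0.0272). Igfbp7 was at -0.70 (adjusted p = 0.0706 in limma), with 0.0196 when the replicate numbers were used as blocks and 0.0203 without siTet1/Tet2 replicate 1. Igf2 and Igf1r were at -0.53 and 0.53 and did not pass, though Igf1r did relative to the mean of the stromal markers (0.73, limma adjusted p = 0.00353). The call of Igfbp4 was lost without any 1 Control library or without siTet1/Tet2 replicate 2 (adjusted p from 0.0507 to 0.0687 in limma), and that of Igfbp3 without siTet1/Tet2 replicate 2 (0.0769). With each library centred instead on the macrophage markers, an alternative chosen after seeing the data, Igf1 was still higher (0.67, adjusted p = 0.00015 in limma), while Igf2r did not pass (0.12, adjusted p = 0.624).

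The genes most like Igf1 over the 6 libraries, by Pearson's r of log2(RPKM + 1) among 11066 genes averaging 1 RPKM or more, were B3gnt8, Slc46a3 and Apoe, with r of 0.9999, 0.9997 and 0.9995. Apoe, a lipid carrier that macrophages secrete in quantity, ran from 3310 to 3985 RPKM in the Control and from 9833 to 10273 RPKM in the siTet1/Tet2 libraries. Those most like Igfbp7 were Bgn, Ctgf and Tgfb3, with r of 0.9999, 0.9997 and 0.9996. Bgn, which encodes the matrix proteoglycan biglycan, was at 291 to 334 RPKM in the Control and at 58.7, 80.1 and 109.6 RPKM in siTet1/Tet2 replicates 1, 2 and 3, in the order seen in Igfbp7. The libraries fall into 2 groups, and an r over 0.95 was reached by 866 genes with Igf1 and by 1648 genes with Igfbp7.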

How the data were processed

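BMMSC RNA was sequenced as paired ends on an Illumina HiSeq in 3 Control and 3 siTet1/Tet2 libraries. The authors deposited RPKM values per gene, made with DNASTAR Lasergene (the study's methods write FPKM), on GRCm38 per the labels. A deposited column of p-values from the authors' own comparison was not used. Values are not counts, and 50.3 to 58.3% of low values were whole reads (within 0.1) at the estimated depths, so no count test was run. Of 36915 rows, the one highest in mean stood for its symbol, leaving 36870. limma 3.58.1 (R 4.3.3, lmFit and eBayes with trend) was run on log2(RPKM + 1), with Benjamini-Hochberg adjustment over 13266 genes and a call at an adjusted p under 0.05, and was tested on simulated data. In the fit relative to the stromal markers limma put all weight on the spread shared across genes. Shares and ratios were tested by exact permutation (scipy 1.17.1). Intervals are 95%.

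The members and lists were chosen with earlier results of these data known. The text names every member, the pathway genes with an adjusted p under 0.05 and groups that do not overlap (up to 5 largest increases and 8 largest decreases), Insr, Irs1, Irs2, Pappa, Igfbp1, Tet1, Tet2, Tet3, and the 3 genes most correlated with the ligand and with the binding protein of highest mean. Stc1, Stc2, Eif4ebp1, Rps6kb1 and the marker genes were named after their values were seen. The values of 1 pathway gene are not reported here. Same-numbered libraries deviated together from their group means (r = 0.149, 0.117 and 0.462), so a fit with the replicate number as a block was added. The pairing rests on these values alone, and 2 unlike-numbered pairs gave higher values than 2 of these, Control 1 with siTet1/Tet2 2 (0.332) and Control 2 with siTet1/Tet2 1 (0.205). Alternatives were pseudocounts, filters, TPM, scalings, the variance prior, duplicate symbols and leaving out each library.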

Additional observations from a re-analysis of the deposited data

How the results depend on the processing

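With a pseudocount of 0.1, of 0.01 and with values rescaled to TPM, 6, 6 and 5 members were altered in place of 2. The shares of all genes were 13.0%, 14.8% and 9.29% in place of 6.58%. The median log2 fold change of the members was -1.38, -1.56 and -1.09 in place of -0.69. A smaller addition shrinks low genes less. TPM values were larger than the RPKM, which summed to 393567 to 440433 in a library, so the same addition of 1 weighed less. How much of the TPM change this made up was not tested. With no filter on low values 6 members were called, against 10.2% of 36870 genes, the calls of Igf1r, Igf2r and Igfbp2 being lost. Among all genes, 747 lower and 126 higher ones were altered, 1438 and 290 with a pseudocount of 0.1 and 1590 and 368 with 0.01, and the split of 3952 lower to 1953 higher became 3054 to 2737 under median ratio scaling and 2640 to 3589 after quantile normalization, which moved the median of all genes from -0.09 to 0.05. The calls of Igf1, Igf2, Igfbp3, Igfbp4, Igfbp5 and Igfbp7 were kept in each alternative of that fit that tested them. Leaving out each library gave 8 to 9 members and 16 to 20 pathway genes called, against 33.2% to 46.5% of all genes. In each of these fits 2 members were altered, against 6.07% to 7.28% of all genes, and the member median was -0.77 to -0.64. Fits relative to the stromal markers called 4 to 7 members, against 83.0% to 88.1% of all genes. The change of the Igfbp7 share was -29.3 to -23.6 percentage points. Relative to the stromal markers, Igfbp6 turned from 0.74 to -0.89 without Control replicate 3 and to -0.29 without siTet1/Tet2 replicate 2, within a range of -0.89 to 2.03 over the fits without 1 library; the cause was not tested. It passed without siTet1/Tet2 replicate 3 (2.03, limma adjusted p = 0.00942) and with a pseudocount of 0.1 (1.09, limma adjusted p = 0.0124). Among the binding proteins other than Igfbp7, the share of Igfbp4 went from 95.4% to 99.1%, a rise of 3.77 points.

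With the replicate number as a block, 9 members were called, against 50.6% of all genes, and the adjusted p of Igf2r was 0.0144 in limma. Of the member calls the block changed that of Igfbp7 relative to the stromal markers (adjusted p = 0.0196) and no other. Among the members, depth limits Igfbp2 and Igfbp6, with at most an estimated 38 reads in a library.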
